A study of Mus musculus with 3 samples.

Results

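The genes described here make reactive oxygen or dispose of it: Cybb, Cyba, Ncf1 and Ncf4 of the phagocyte NADPH oxidase, and Slc7a11, Gclm, Gpx1, Txnrd1 and Prdx1 of the glutathione and thioredoxin systems. They were listed by name, because homocysteine is tied to oxidative stress, and the rule used no threshold on a measured value, although earlier results of these data were known. All 9 were found among the 32285 genes of the count matrices. The study profiled CD45+ cells, which are cells of blood origin, sorted from digested aortas with their adventitia. All mice were labelled ApoE-/- on the C57BL/6J background, a strain that clears lipoproteins poorly and develops atherosclerosis. The control group received no stated treatment. The HHcy group drank water with homocysteine (Hcy) at 1.8 g/L, and the WD group ate a western diet, each for 4 weeks. Where 3 values follow each other below, they are for the control library, the library labelled HHcy and WD in that order. There was 1 single-cell library in each group, so no difference between groups has a replicate check and no p-value is given. Age, sex and the number of mice in a library are not given in the sources used here.

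The phagocyte NADPH oxidase moves electrons from NADPH across a membrane to oxygen and so makes superoxide. Cybb encodes its catalytic subunit gp91phox and Cyba the membrane partner p22phox, while Ncf1 and Ncf4 encode p47phox and p40phox, which join the complex from the cytosol when the cell is activated. Neutrophils and macrophages are its best known users, and B cells carry it too. Superoxide becomes hydrogen peroxide, which cells remove with glutathione, thioredoxin and peroxiredoxins. Slc7a11 encodes the cystine importer xCT and Gclm the modifier subunit of the first enzyme of glutathione synthesis. Gpx1 is a glutathione peroxidase, Prdx1 a peroxiredoxin, and Txnrd1 the cytosolic thioredoxin reductase that keeps thioredoxin reduced. The transcription factor NRF2 is known to drive Slc7a11, Gclm, Txnrd1 and Prdx1.

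Gene positions were taken from the GENCODE M21 annotation of build GRCm38, matched by gene identifier. Cybb spans chrX:9435252-9487771 on the reverse strand, Cyba chr8:122424776-122432930 on the reverse strand, Ncf1 chr5:134220053-134229625 on the reverse strand and Ncf4 chr15:78244801-78262580 on the forward strand. Slc7a11 spans chr3:49892526-50443614 on the reverse strand, Gclm chr3:122245557-122270732 on the forward strand and Gpx1 chr9:108338903-108340343 on the forward strand. Txnrd1 spans chr10:82833951-82897712 and Prdx1 chr4:116685544-116700822, both on the forward strand. Txnrd1, Gclm and Slc7a11 overlap other annotated genes on their own strand (Eid3 in Txnrd1), and how reads in such overlaps were counted is not given in the sources used here.

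After filters, 5400 cells of the control library, 6425 of the library labelled HHcy and 5340 of the WD library were used, with medians of 7601, 6773 and 8215 unique molecular identifiers (UMIs, each a captured transcript) per cell. Markers of 2 or more lineages removed 10.6%, 21.2% and 20.4% of the barcodes that passed the first filters. Between 20 and 24 cell barcodes occurred in both libraries of each pair, of which 11 to 14 were among the cells used. One library went against its label in Apoe, the gene named as deleted, although whether these 3' reads lie in the deleted part is not given in the sources used here. Apoe was at 16.3 counts per 1e6 UMIs (CPM) over all control barcodes and 19.3 over those of WD, but at 374 in the library labelled HHcy. In that library 190 of 1234 macrophage/monocyte-like cells (15.4%) held 10 or more Apoe UMIs, against 1 of 2012 in the control and 2 of 2701 in WD. The results below were therefore also computed without the cells of any class that held 10 or more Apoe UMIs. All 8 counts of genes past 1.5-fold were the same without them, and 71 of 72 ratios kept their sign. Only 67 of the 72 stayed inside the counting interval of the value with all cells. Some macrophage/monocyte-like levels of the library labelled HHcy therefore depend on these cells. Without them Slc7a11 rose there from 226 to 251 CPM, further from the control (198 CPM). Gpx1 rose from 1719 to 1753 CPM, nearer to the control (1821 CPM). In the library labelled HHcy the step left out only 18 of 3811 B cell-like, 1 of 408 neutrophil-like and 1 of 235 conventional dendritic-like cells. In those classes the step could change little, and whether their cells match the label was not tested.

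The 4 oxidase genes were highest in the phagocytes, and each had its own order of classes. Levels are CPM, the UMIs of a gene scaled by all UMIs of the cells of a class in a library. Cybb was highest in macrophage/monocyte-like cells, at 1454, 1512 and 1214 CPM. Neutrophil-like cells came next with 884, 442 and 615 CPM, then B cell-like cells with 319, 376 and 358, conventional dendritic-like cells with 212, 270 and 288, and T cell-like cells with 32.9, 32.3 and 18.1. No 2 neighbouring classes of this order overlapped over the 3 libraries. The spread between libraries was largest in neutrophil-like cells, where the highest library was 2.0 times the lowest. In the macrophage/monocyte-like class it was 1.25 times.

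Cyba, the membrane partner, was spread more evenly over the classes than Cybb. It was at 1300, 1390 and 1463 CPM in macrophage/monocyte-like cells. Neutrophil-like cells (979, 1166 and 1021 CPM) and conventional dendritic-like cells (913, 907 and 1174 CPM) overlapped, and without the library labelled HHcy they changed places. B cell-like cells held 562 to 639 CPM and T cell-like cells 352 to 383.

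Ncf1 and Ncf4, which encode the cytosolic subunits, were highest in neutrophil-like cells. Ncf1 was at 614, 548 and 646 CPM there, against 189, 169 and 164 in macrophage/monocyte-like cells. Ncf4 was at 272, 281 and 279 CPM against 151, 160 and 149. The 2 classes did not overlap in either gene. B cell-like cells (Ncf1 107 to 124 CPM, Ncf4 94.7 to 110) and conventional dendritic-like cells (Ncf1 115 to 123, Ncf4 68.3 to 86.0) followed, and they overlapped in Ncf1. T cell-like cells held 8.06 to 25.8 CPM of Ncf1. Fibroblast-like cells (30, 86 and 171 cells) held 4.97 to 18.02 CPM of Cybb, 2.59 to 4.97 of Ncf1 and 4.35 to 5.18 of Ncf4. Macrophage/monocyte markers summed to 571, 599 and 624 CPM in them. How much of these low values is the cells' own was not tested.

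**Figure D1:**
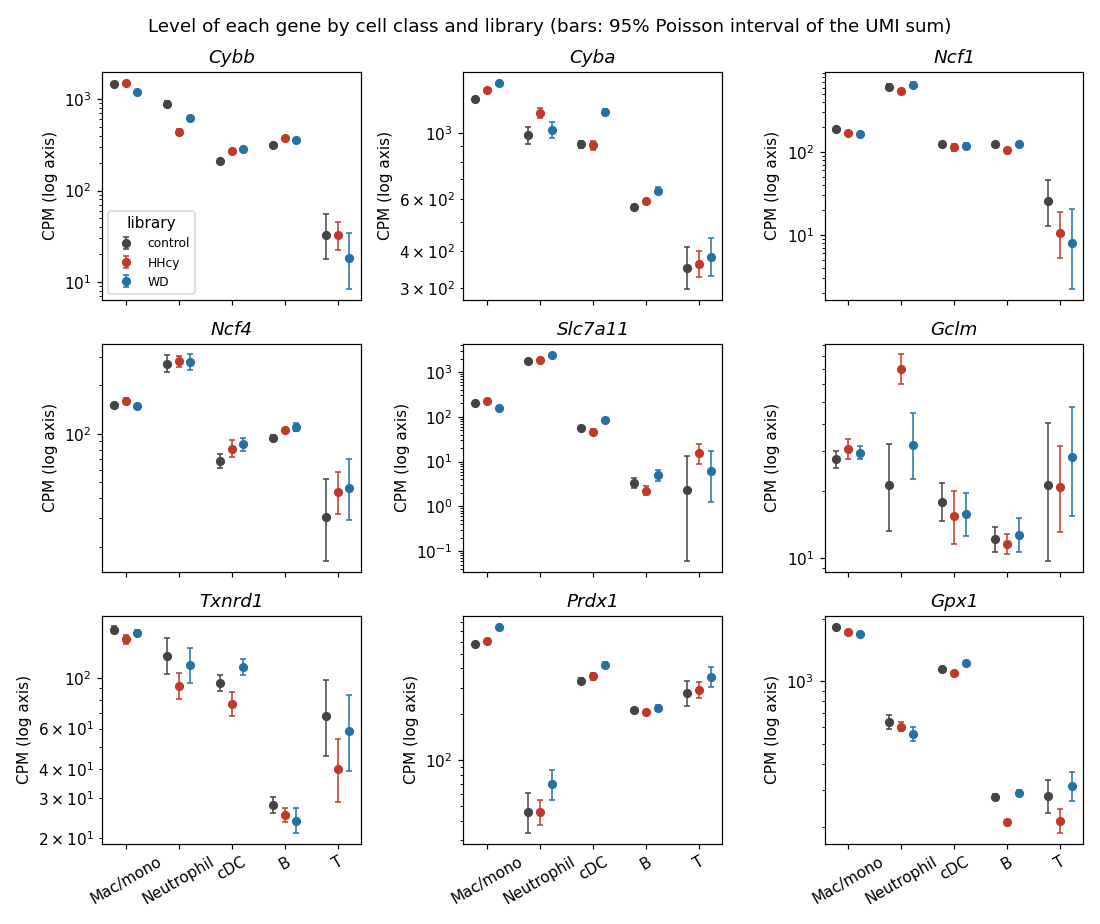
Level of each of the 9 genes (CPM, log axis) in 5 cell classes, with 1 point per library (control, HHcy, WD) and bars for the 95% Poisson interval of the UMI sum. Cybb, Cyba, Gpx1 and Prdx1 sit highest in macrophage/monocyte-like cells, and Ncf1, Ncf4 and Slc7a11 in neutrophil-like cells. The 3 libraries of a class mostly lie close together. Wider spreads include Gclm and Cybb in neutrophil-like cells, Slc7a11 and Ncf1 in T cell-like cells, and Slc7a11 in B cell-like cells.

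The 5 antioxidant genes had different orders of classes. Slc7a11, the cystine importer, was at 1769, 1837 and 2405 CPM in neutrophil-like cells. In macrophage/monocyte-like cells it was at 198, 226 and 157 CPM and in conventional dendritic-like cells at 57.4, 46.4 and 84.0. Lymphocytes held almost none of it, with 2.24 to 4.93 CPM in B cell-like and 2.35 to 15.2 in T cell-like cells, which overlapped. When every cell was thinned to 1000 UMIs, 65.2%, 72.1% and 74.4% of neutrophil-like cells still held a Slc7a11 UMI, against 0.350%, 0.185% and 0.544% of B cell-like cells. Unthinned, the shares were 86.6%, 95.3% and 93.1% against 1.78%, 1.36% and 2.61%, at medians of 4412, 4898 and 3918 UMIs in neutrophil-like and 7529, 6449 and 6679 in B cell-like cells.

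Gpx1 and Prdx1, which remove peroxide, were highest in macrophage/monocyte-like cells. Gpx1 was at 1821, 1719 and 1695 CPM there, 1145, 1091 and 1223 in conventional dendritic-like, and 635, 606 and 560 in neutrophil-like cells. T cell-like (213 to 312 CPM) and B cell-like cells (211 to 291 CPM) overlapped at the bottom of its order. Neutrophil-like cells were thus the third class for Gpx1 but the last for Prdx1. Prdx1 was at 576, 602 and 747 CPM in macrophage/monocyte-like cells and lowest in neutrophil-like cells, at 45.7, 45.8 and 69.7 CPM. Conventional dendritic-like (331 to 422 CPM) and T cell-like cells (275 to 351 CPM) overlapped between these ends, and B cell-like cells held 208 to 221 CPM.

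Txnrd1 was highest in macrophage/monocyte-like cells, and Gclm had no single leading class. Txnrd1, the thioredoxin reductase, was at 162, 147 and 156 CPM in macrophage/monocyte-like cells. Neutrophil-like cells (92.4 to 125 CPM) and conventional dendritic-like cells (77.1 to 112 CPM) overlapped below that, and B cell-like cells had the least (23.9 to 27.9 CPM). Gclm, the glutathione synthesis subunit, was at 27.8, 30.9 and 29.7 CPM in macrophage/monocyte-like cells. In neutrophil-like cells it was at 21.3, 70.5 and 32.2 CPM, so its first place there rested on the library labelled HHcy. Without that library macrophage/monocyte-like cells came first. The neutrophil-like sums behind these values were small, 21, 171 and 36 UMIs.

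The pattern of 4 genes over 5 classes in 3 libraries (15 points, log2 of CPM + 10) was set beside that of every other gene among 10378. Points of a library share its preparation and depth. The 3 points of a class repeat the same class, so a high correlation rests mainly on differences between 5 classes. The correlations are therefore descriptions. Cybb was most like Rnf13 (Pearson r = 0.976), Slc31a1 (0.953) and Bri3 (0.948). Gpx1 was most like the macrophage marker Cd68 (0.990), Sowahc (0.986) and Acer3 (0.985). Slc7a11 was most like Sirpb1b (0.991), Siglece (0.989) and Tnfaip2 (0.988), and Txnrd1 like Ifrd1 (0.979), Cflar (0.973) and Foxn2 (0.955).

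Within the macrophage/monocyte-like class the 9 genes split by subset. Neither the 9 genes nor the pathway genes below were among the genes used to cluster the cells. Foamy-like macrophages, named from markers such as Gpnmb, Spp1 and Trem2 of lipid-laden cells, made up 310 of 2012, 184 of 1234 and 516 of 2701 cells. Prdx1 was at 1198, 1427 and 1422 CPM in them, against 393, 420 and 493 in the other macrophage/monocyte-like cells of the same libraries, which is 3.05-fold, 3.40-fold and 2.88-fold. Gclm was at 67.7, 56.6 and 53.6 CPM against 16.0, 25.2 and 20.7, or 4.23-fold, 2.25-fold and 2.59-fold. Txnrd1 was at 229, 209 and 245 CPM against 142, 133 and 123, or 1.61-fold, 1.57-fold and 1.99-fold. These 3 of the 9 genes were thus at least 1.5-fold higher in the foamy-like subset of every library. Of 7172 genes with enough UMIs, 4.99% were. No member was at least 1.5-fold lower in every library, against 7.36% of genes. The median cell had more UMIs in the foamy-like subset (11996, 10319 and 14713) than in the class as a whole (7490, 8401 and 9281).

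The 2 sub-clusters that carried the foamy-like name shared high Prdx1 but not Slc7a11. In the sub-cluster led by Spp1 and Gpnmb, Slc7a11 was at 362, 265 and 385 CPM. In the sub-cluster led by Mmp12 it was at 45.1, 61.6 and 44.2 CPM. Prdx1 was at 1288, 2008 and 1439 CPM in the first and 1103, 977 and 1401 in the second. Slc7a11 was thus far higher in the first in all 3 libraries, while Prdx1 was close in the control and WD and apart in the library labelled HHcy. Gclm was at 90.5, 95.2 and 53.0 CPM in the first and 43.6, 26.7 and 54.3 in the second, an order that WD did not share.

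Promoter sequences are shown for Gclm, Prdx1 and Txnrd1 because these 3 genes were the ones higher together in foamy-like cells. NRF2 is known to bind the antioxidant response element, whose core TGACNNNGC was searched on both strands in the 250 bases before each RefSeq gene start (build GRCm38.p6). It occurred for 3 of the 8 members with a RefSeq promoter, namely Gclm, Prdx1 and 1 of the 3 starts of Txnrd1. Counted by promoter this was 3 of 10, against 10.2% of 32851 promoters. In each case the match lay on the reverse strand, 134, 133 and 92 bases before the start. Cyba, Cybb, Gpx1, Ncf1 and Slc7a11 had no match in this window, and Ncf4 had no entry. A match is a description of letters and not a bound site. The listed genes include Slc7a11, Gclm, Txnrd1 and Prdx1, named above as known NRF2 targets. The share with a match is therefore no test, and NRF2 in foamy-like cells was not tested. Capitals mark the match, as read on the forward strand of chr3:122245388-122245466, chr4:116685431-116685509 and chr10:82859079-82859157.
Gclm: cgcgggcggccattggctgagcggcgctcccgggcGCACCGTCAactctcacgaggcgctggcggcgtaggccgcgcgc
Prdx1: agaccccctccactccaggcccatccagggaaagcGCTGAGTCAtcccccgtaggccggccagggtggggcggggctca
Txnrd1: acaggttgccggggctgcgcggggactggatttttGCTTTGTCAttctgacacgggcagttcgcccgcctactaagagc

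Both monocyte subsets held more Slc7a11, Cybb and Ncf4 than the rest of the class, by different folds. In the non-classical monocyte-like subset Cybb was at 2249, 2538 and 2247 CPM, which was 1.79-fold, 1.90-fold and 2.03-fold the level of the other macrophage/monocyte-like cells. Ncf4 was at 235, 247 and 245 CPM (1.70-fold to 1.81-fold) and Slc7a11 at 410, 477 and 296 CPM (2.08-fold to 2.81-fold). These 3 of 9 genes were at least 1.5-fold higher in every library, against 9.72% of genes, and none was that much lower, against 13.4%. Classical monocyte-like cells shared the higher Slc7a11 (298, 427 and 335 CPM, 1.65-fold to 2.62-fold), the 1 member of 9 that was 1.5-fold higher in every library, against 4.9% of genes. Their Ncf4 was at 202, 261 and 251 CPM (1.43-fold, 2.02-fold and 1.81-fold), which missed 1.5-fold in the control alone, and their Cybb at 1781, 1736 and 1655 CPM (1.20-fold to 1.42-fold). Gclm was the 1 member that was lower there (9.50, 16.4 and 11.1 CPM, 0.305-fold to 0.465-fold), against 10.7% of genes.

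Resident macrophage-like cells, named from Lyve1, Folr2 and Cd163, held less of 3 oxidase and 2 antioxidant genes. Slc7a11 was at 11.2, 13.2 and 16.4 CPM there, against 225, 271 and 176 in the other macrophage/monocyte-like cells, a level 10.8 to 20.5 times lower. Cybb was at 777, 700 and 763 CPM (0.415-fold to 0.598-fold), Cyba at 561, 691 and 655 (0.449-fold or less), Ncf4 at 67.0, 67.8 and 71.7 (0.377-fold to 0.449-fold) and Gpx1 at 1017, 999 and 1033 (0.526-fold to 0.578-fold). These 5 of 9 genes were at least 1.5-fold lower in every library, against 10.2% of genes. No member was 1.5-fold higher, against 12.5%. Ncf1 was at 1.02-fold to 1.31-fold the other cells, Txnrd1 at 0.692-fold to 0.825-fold, Prdx1 at 0.517-fold to 0.686-fold and Gclm at 0.698-fold to 1.14-fold. In the small cycling subset (47, 18 and 91 cells) Cybb was the 1 member of 9 that was lower in every library, against 5.58% of genes.

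**Figure D2:**
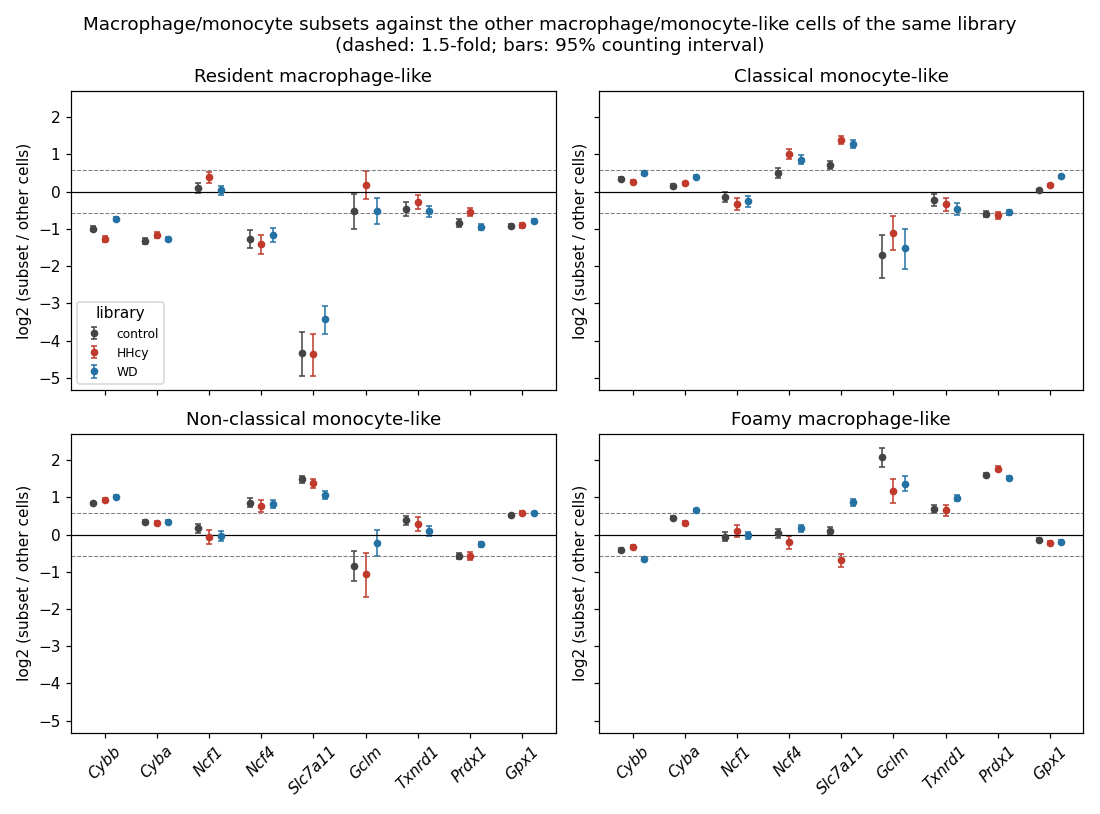
Log2 ratio of each gene between a subset and the rest of the macrophage/monocyte-like class in its library, with 1 point per library, bars for the 95% counting interval and dashed lines at 1.5-fold. Slc7a11 lies far below the line in resident macrophage-like cells and above it in both monocyte subsets, while Prdx1, Gclm and Txnrd1 lie above it in foamy-like cells in all 3 libraries.

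Conventional dendritic-like cells differed among themselves in Cybb. In the type 2 subset, led by Cd209a, Cybb was at 413, 537 and 515 CPM. In the other dendritic cells it was at 53.8, 51.2 and 59.7 CPM, so the type 2 subset held 7.68, 10.5 and 8.61 times that level. Cybb was the 1 member of 9 that was at least 1.5-fold higher there in every library, against 8.01% of genes, and none was that much lower, against 6.59%. In the type 1 subset, led by Xcr1, Cybb (26.7 to 57.3 CPM), Txnrd1 (38.1 to 45.6) and Slc7a11 (4.84 to 11.6) were lower in every library, 3 of 9 against 9.84% of genes. Ncf4 (96.7, 113 and 140 CPM, 1.75-fold to 1.98-fold) was the 1 member that was higher, against 4.91%. Cybb and Ncf4, subunits of 1 complex, thus went opposite ways in type 1 cells.

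Mature dendritic-like cells, led by Fscn1 and Ccr7, held the most Slc7a11 of the 3 named dendritic subsets, at 211, 269 and 203 CPM against 31.8, 18.9 and 50.3 in the others. Ncf1 (274, 243 and 205 CPM, 2.15-fold to 2.79-fold) and Cyba (1474, 1387 and 1708 CPM, 1.64-fold to 1.80-fold) were also higher, 3 of 9 genes against 11.5%. Cybb (83.8, 160 and 69.3 CPM) was lower, 1 of 9 against 19.0%. The subset had 76, 32 and 92 cells. With a finer sub-clustering, Cybb, Gclm, Ncf4 and Prdx1 in mature cells and Ncf4, Slc7a11 and Txnrd1 in type 2 cells moved by over 1.5 times, as did Slc7a11 in cycling macrophages.

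In B cell-like cells the antioxidant genes differed between the cycling and the naive follicular subsets. In cycling B cell-like cells (71, 64 and 21 cells) Prdx1 was at 650, 672 and 533 CPM against 177, 180 and 207 in the other B cell-like cells, or 3.68-fold, 3.74-fold and 2.58-fold. Gclm (25.3, 26.1 and 33.6 CPM), Txnrd1 (49.3, 37.8 and 35.8) and Gpx1 (452, 359 and 477) were higher too. These were 4 of 8 members tested, against 20.3% of genes (none was lower, against 9.21%), and the cycling cells had medians of 17453, 23386 and 14131 UMIs. In naive follicular B-like cells Gclm (6.26 to 7.18 CPM), Prdx1 (127 to 149) and Gpx1 (153 to 191) were at least 1.5-fold lower in every library. These were 3 of 8 members, against 6.65% of genes, and no member was that much higher, against 4.47%. Txnrd1 was not among them, at 0.939-fold in the control and 0.832-fold in the library labelled HHcy. Slc7a11 was under the minimum of 10 CPM in B cells and was not tested. Of the B1-like subset no member passed in either direction, against 4.31% of genes higher and 8.33% lower.

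Neutrophil-like cells fell into 2 clusters with different levels of Cybb, Slc7a11 and Txnrd1. One was led by Camp, Ngp and Ltf, granule genes made early in neutrophil development, and the other by G0s2, Acod1 and Retnlg. Cybb was at 1454, 1102 and 1747 CPM in the Camp/Ngp cluster, and at 293, 211 and 189 CPM in the other, a ratio of 4.96, 5.22 and 9.22. Slc7a11 was the reverse, at 846, 1022 and 877 CPM against 2726, 2122 and 2980. Txnrd1 followed Slc7a11, at 53.9, 50.8 and 39.3 CPM against 198, 107 and 141. So Cybb was higher in the Camp/Ngp cluster (1 of 9 members, against 13% of genes) and Slc7a11 and Txnrd1 were lower (2 of 9, against 17.5%) in every library.

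**Figure D3:**
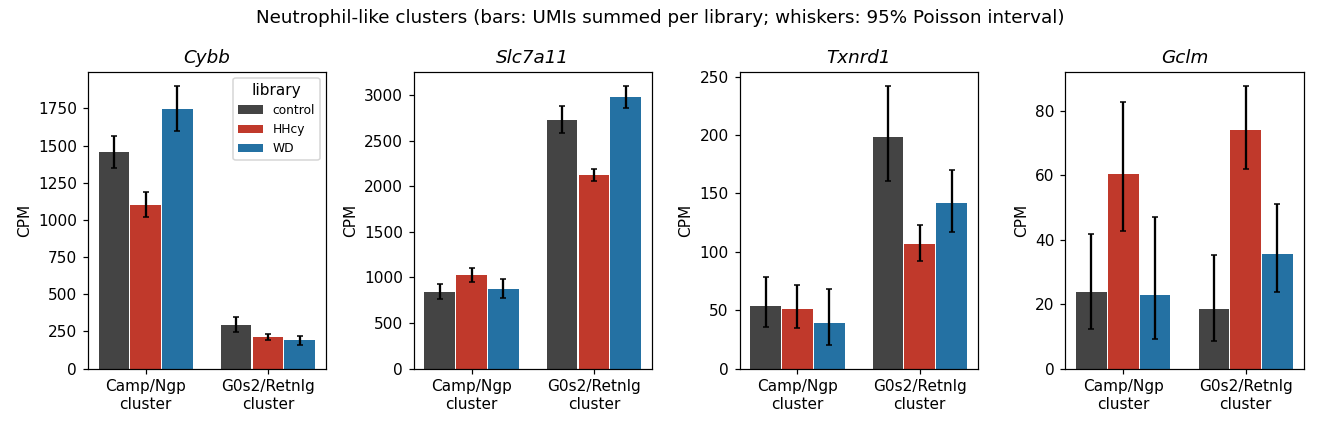
CPM of Cybb, Slc7a11, Txnrd1 and Gclm in the Camp/Ngp and G0s2/Retnlg clusters of neutrophil-like cells, with 1 bar per library and whiskers for the 95% Poisson interval. Cybb is high in the first cluster and Slc7a11 and Txnrd1 in the second in all 3 libraries, while Gclm is highest in the library labelled HHcy in both clusters.

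The clusters were unequally represented. The Camp/Ngp cluster held 78 of 186 neutrophil-like cells in the control (41.9%, 95% Clopper-Pearson interval 34.8 to 49.4), 75 of 408 in the library labelled HHcy (18.4%, 14.7 to 22.5) and 43 of 259 in WD (16.6%, 12.3 to 21.7). Over all neutrophil-like cells Cybb was at 884, 442 and 615 CPM. Against the control, its log2 ratio in the library labelled HHcy was -0.998 (95% counting interval -1.13 to -0.87). In WD it was -0.52 (-0.67 to -0.38). When both libraries were given the same mix of the 2 clusters, the ratio was -0.43 and 0.01, and neither was past 1.5-fold. Within the Camp/Ngp cluster the log2 ratio of Cybb in the library labelled HHcy was -0.40 (-0.55 to -0.25), and in WD it was 0.26 (0.10 to 0.43). The other cluster, which held most neutrophil-like cells, had less Cybb than its control cells under both treatments, by the levels given above. For WD the 2 clusters thus went opposite ways. Its same-mix ratio of 0.01 therefore does not mean that Cybb was unchanged within each cluster.

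Gclm was higher in neutrophil-like cells of the library labelled HHcy than in the other libraries. Its level was 3.31-fold that of the control (2.10 to 5.48), a log2 ratio of 1.73, on 171 against 21 UMIs. It was higher in both clusters, at 60.3 against 23.9 CPM in the Camp/Ngp cluster and 74.1 against 18.6 in the other, and with the same mix of clusters the log2 ratio was 1.82. The share of neutrophil-like cells with a Gclm UMI at 1000 UMIs a cell was 1.69%, 5.99% and 2.44%, from 8.06%, 24.0% and 10.4% unthinned. The thinned share in B cell-like cells was 1.27%, 0.978% and 1.24%. Gclc, which encodes the catalytic partner of Gclm, was at 14.2, 5.77 and 7.15 CPM on 14, 14 and 8 UMIs. It was picked for naming after its values were seen.

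In neutrophil-like cells 2 of the 9 genes, Cybb (lower) and Gclm (higher), were past 1.5-fold in the library labelled HHcy against the control, and 33.7% of 5695 genes were, 6.83% higher and 26.9% lower. In WD 2 of 9 were, both higher, Gclm (0.595, -0.22 to 1.445) and Prdx1 (0.61, 0.06 to 1.17) on the log2 scale, against 27.0% of 5771 genes, 7.56% higher and 19.5% lower. Neither count of 2 of 9 exceeds the share of all genes past 1.5-fold. The median log2 ratio of all genes was -0.23 in the library labelled HHcy, and of the members 0.00. Ratios centred on the median gene gave -0.76 for Cybb and 1.96 for Gclm. Between the library labelled HHcy and WD directly, 2 of 9 were past 1.5-fold (Gclm higher, Prdx1 lower), against 18.9% of genes.

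In the larger classes the 9 genes stayed within 1.5-fold of the control. In macrophage/monocyte-like cells the count was 0 of 9 for the library labelled HHcy, against 2.71% of 7556 genes, and 0 of 9 for WD, against 3.24% of 7571. The widest ratios were a log2 of 0.37 (0.34 to 0.41) for Prdx1 in WD and -0.34 (-0.40 to -0.275) for Slc7a11 in WD. Foamy-like cells, which held the most Prdx1, were 15.4% of the class in the control and 19.1% in WD. With the same mix of sub-clusters Prdx1 in WD was at 0.32 and Slc7a11 at -0.12. In the library labelled HHcy the members lay between -0.16 (Ncf1) and 0.19 (Slc7a11), and Cybb was at 0.06 (0.03 to 0.08).

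In B cell-like cells the count was 0 of 8 for the library labelled HHcy, against 5.92% of genes, and 0 of 8 for WD, against 1.7%. Among the 8 genes tested Gpx1 had the widest ratio, a log2 of -0.40 (-0.45 to -0.35) in the library labelled HHcy. Naive follicular B-like cells, which had low Gpx1 in each library, were 68.4% of B cell-like cells there and 31.7% in the control, and with the same mix of sub-clusters the ratio was -0.20. In conventional dendritic-like cells the count was 0 of 9 for the library labelled HHcy, against 6.47% of genes, and 0 of 9 for WD, against 6.85%. Slc7a11 in WD came nearest, at 0.55 (0.34 to 0.76). Its ratio for the library labelled HHcy was -0.31 (-0.585 to -0.03), and the difference between those libraries, -0.86 (-1.13 to -0.60), was past 1.5-fold, 1 of 9 against 9.43% of genes. Mature cells, rich in Slc7a11, were 18.4%, 13.6% and 28.1% of the class, and with the same mix the ratios to the control were -0.04 and 0.12. Neutrophil markers summed to 302, 2879 and 667 CPM in these dendritic cells, with 5, 13 and 6 of 15 at 10 CPM or more, and erythroid markers to 420, 11.1 and 16.3 CPM, with 3, 0 and 1 of 5 at that level. Their part in the Slc7a11 values was not tested.

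**Figure D4:**
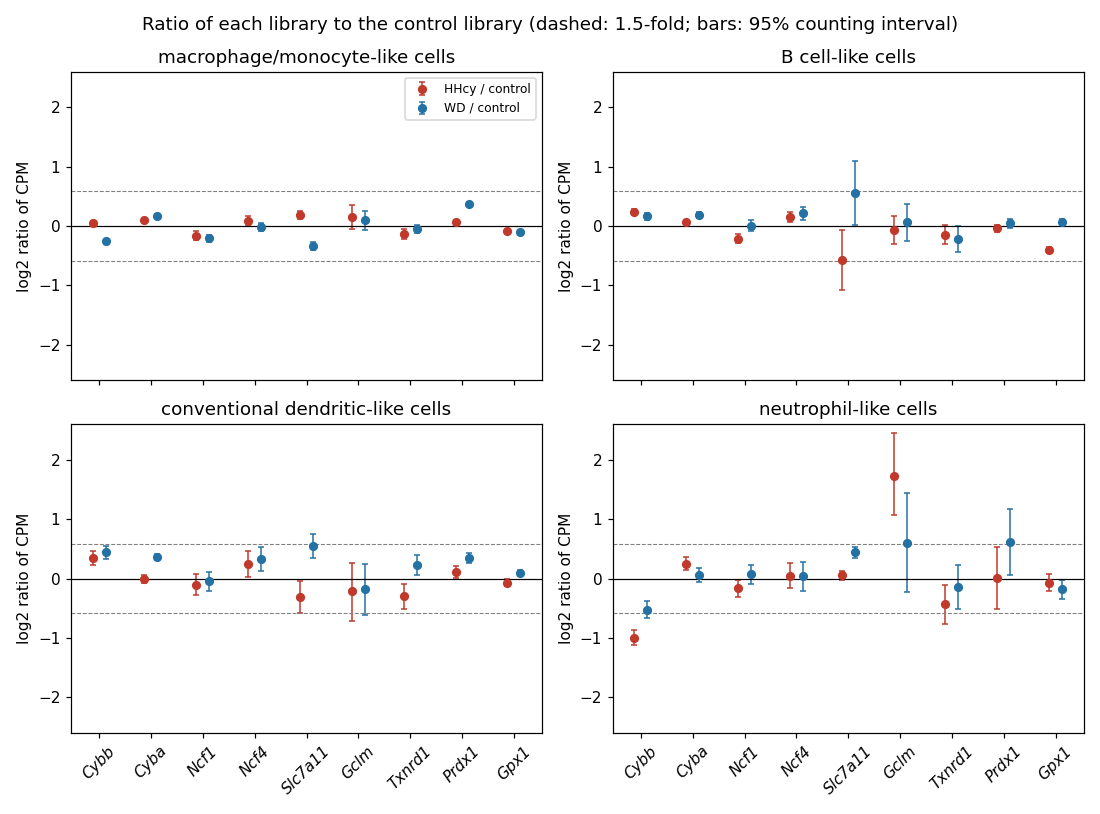
Log2 ratio of CPM to the control library for each gene in 4 cell classes, red for the library labelled HHcy and blue for WD, with bars for the 95% counting interval and dashed lines at 1.5-fold. All points of macrophage/monocyte-like and conventional dendritic-like cells lie inside the dashed lines. In neutrophil-like cells Cybb and Gclm of the library labelled HHcy lie outside, and Gclm and Prdx1 of WD lie just outside.

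T cell-like cells were few (73, 132 and 76), and their sums of Cybb, Ncf1 and Ncf4 were small. A cluster of 66, 69 and 68 cells led by Ccl5, Nkg7 and Gzma scored best for T cell markers but stayed unnamed. Cd8a and Cd8b1 were also among its leading genes, and it is left out of all T cell-like values here. The class does hold a cluster of 7, 12 and 7 cells led by Rag1 and Dntt. Erythroid markers summed to 3397, 10.4 and 44.3 CPM in T cell-like cells, with 3, 0 and 1 of 5 at 10 CPM or more. The part of the erythroid markers in the ratios below was not tested. Of 8 members tested, 2 were past 1.5-fold in the library labelled HHcy (Ncf1 and Txnrd1, lower), against 30% of genes, and 3 in WD (Cybb and Ncf1, lower, and Ncf4, higher), against 32.5%. Ncf1 rested on 11, 11 and 4 UMIs, and Cybb on 14, 34 and 9. Directly between the last 2 libraries, 2 of 8 were past 1.5-fold, against 28.0% of genes. Over the macrophage/monocyte-like and B cell-like classes this direct comparison gave 0 of 9, against 4.17% of genes, and 0 of 8, against 4.28%.

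Other genes of the same pathways were counted in the same way. In macrophage/monocyte-like cells, where 2.71% of all genes were past 1.5-fold in the library labelled HHcy and 3.24% in WD, 0 of 6 tested NADPH oxidase genes, 0 of 10 thioredoxin and peroxiredoxin genes and 0 of 3 superoxide dismutase and catalase genes were past 1.5-fold in either comparison. Of 16 glutathione genes 1 was higher in the library labelled HHcy, of 17 tested 1 was lower in WD, and of the 13 NRF2 pathway genes 1 was higher in the library labelled HHcy. In B cell-like cells of that library, 1 of 11 NRF2 pathway genes was higher and 2 were lower, against 5.92% of all genes. There 1 of 11 glutathione genes was lower and 1 of 9 thioredoxin and peroxiredoxin genes was higher. In B cell-like cells of WD no gene of these lists was past 1.5-fold, against 1.7% of all genes. In conventional dendritic-like cells of the library labelled HHcy, 2 of 12 NRF2 pathway genes were lower, against 6.47% of all genes. Higher there were 1 of 6 NADPH oxidase and 1 of 9 thioredoxin and peroxiredoxin genes. In their WD cells (6.85% of all genes) 1 of 6 NADPH oxidase and 1 of 12 NRF2 pathway genes were higher. Of 13 glutathione genes 1 was higher and 1 lower. In neutrophil-like cells 4 pathway genes met the rule for naming. Fth1, the ferritin heavy chain that stores iron, was at 11698, 19577 and 20487 CPM. Hvcn1, the proton channel that balances the charge moved by the oxidase, was at 52.8, 13.2 and 17.9 CPM, on 52, 32 and 20 UMIs. Prdx2 was at 10.1, 20.6 and 20.6 CPM and the glutathione transferase Gstm1 at 9.13, 12.8 and 31.3. Of the 13 NRF2 pathway genes tested in neutrophil-like cells, 2 were higher in the library labelled HHcy (6.83% of all genes were higher and 26.9% lower), and 5 were higher and 1 lower in WD (7.56% and 19.5%). Among 6 NADPH oxidase genes 1 was lower in each comparison, and of 2 superoxide dismutase and catalase genes none was past 1.5-fold. None of 12 glutathione genes was past it in the library labelled HHcy. In WD 1 of 13 was higher and 2 were lower. Of 7 thioredoxin and peroxiredoxin genes 1 was higher in the library labelled HHcy and 2 in WD. The cluster mix moved with these values, and its part in them was not tested. In the Camp/Ngp cluster, which was 41.9%, 18.4% and 16.6% of neutrophil-like cells, 9 of the 13 NRF2 pathway genes were at least 1.5-fold lower in every library than in the other cluster and 1 was higher, against 17.5% and 13% of genes. Fth1 was at 5342, 5955 and 6607 CPM in the Camp/Ngp cluster and 18278, 24358 and 25708 in the other. Hvcn1 was at 69.8, 23.8 and 52.3 CPM in the first and 35.1, 9.47 and 4.92 in the second.

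Foamy-like macrophages, where Prdx1, Gclm and Txnrd1 were high, did not carry all genes of the same pathways at high levels. Over all genes 4.99% were 1.5-fold higher there in every library and 7.36% lower. Of 13 NRF2 pathway genes, 2 were at least 1.5-fold higher in every library, Fth1 and Ftl1 of ferritin, and 1 was lower, Hmox1, the haem oxygenase. Of 10 thioredoxin and peroxiredoxin genes Srxn1, which repairs peroxiredoxins, was higher (49.2, 36.1 and 50.4 CPM against 13.95, 13.04 and 17.3 in the other cells), and Txnip and Prdx5 were lower. Of 15 glutathione genes Mgst3 was higher, and Gsr, the glutathione reductase, and Mgst1 were lower. Of 6 NADPH oxidase genes Hvcn1 was higher, at 58.3, 47.9 and 47.5 CPM against 13.5, 14.1 and 15.7. These genes were picked for naming after their values were seen.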

How the data were processed

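Per the labels' protocols, CD45+ aortic cells went through 10x Chromium 3' (version 3) library preparation. The authors' deposited matrices hold raw UMI counts per gene and cell barcode. Per the file headers Cell Ranger 4.0.0 wrote them, whereas the submitters' processing notes name Cell Ranger 2.2.0 and mm10. Barcodes with at least 200 genes and at most 10% mitochondrial UMIs were kept. Scrublet marked 0, 0 and 3 barcodes, so barcodes reaching the limit of 2 or more of 5 lineages (7 B, 6 T/NK, 9 myeloid, 8 neutrophil or 6 stromal markers) were removed instead. This removal, the naming limits below and the second look at sub-clusters were set after the data were seen. Doublets within a lineage were not marked. The control library held 7512 barcodes and 66789257 UMIs, the library labelled HHcy 9753 and 105180370, and WD 8557 and 93164076.

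Cells were clustered together in scanpy 1.11.5 (2000 variable genes, 30 principal components, 20 neighbours, Leiden resolution 1.0, seed 1) and named "-like" from marker lists. A name needed 3 markers detected in 25% of the cells, a score of 0.2, and a second class at no more than 0.75 of it. In all, 4.98%, 5.25% and 7.25% of cells stayed unnamed. B cells, macrophages/monocytes and dendritic cells were sub-clustered at resolution 0.5. Counts were summed per class and library and scaled to CPM. A gene was past the fold at 1.5-fold or more and a mean of at least 10 CPM. Ratios carry exact conditional binomial intervals (95%) and sums exact Poisson intervals, which cover counting error only and not the spread between mice. On simulated counts the ratio step was tested before use. Members, lists and subsets were chosen with earlier results of these data known. Pathway genes were named where past 1.5-fold in the same direction in both comparisons, or past 2-fold in 1, in macrophage/monocyte-like, B cell-like or neutrophil-like cells.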

Additional observations from a re-analysis of the deposited data

Results flagged for a closer look

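The log2 ratio of Cybb between the library labelled HHcy and the control had opposite signs in different cell classes. It was -0.998 in neutrophil-like cells, against 0.24 in B cell-like, 0.35 in conventional dendritic-like and 0.06 in macrophage/monocyte-like cells, with counting intervals that excluded 0 in each. The difference between the classes was not tested, since there was 1 library per group. The share of the neutrophil cluster rich in Cybb (41.9% of control neutrophils and 18.4% of those labelled HHcy) moved with the neutrophil value, and with the same mix of clusters it was -0.43. In B cell-like cells the same mix gave -0.06, so that sign did not hold there.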

How the results depend on the processing

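Counts of genes past 1.5-fold in macrophage/monocyte-like and B cell-like cells, and in neutrophil-like cells of the library labelled HHcy, stayed within 1.5 times under all 10 alternatives. In those neutrophil-like cells the count of 2 hid a change: Cybb was no longer past 1.5-fold with the same mix of sub-clusters (-0.43), where Txnrd1 was (-0.80), nor with Scrublet (-0.40), where Prdx1 was (0.72). For WD in neutrophil-like cells the count of 2 was 1 with Scrublet in place of the marker rule, at 20% mitochondrial UMIs, at Leiden resolution 2 and with the same mix of sub-clusters. In conventional dendritic-like cells of the library labelled HHcy the count of 0 was 1 with barcodes of 2 lineages kept, with Scrublet and at resolution 2 (Slc7a11 each time), and 3 with cells thinned to 1000 UMIs. In WD it was 1 with barcodes of 2 lineages kept, with Scrublet, with cells named one by one from their markers (Slc7a11 in these) and with the same mix (Ncf4), 2 at 20% mitochondrial UMIs and at resolution 2, and 3 when thinned. Single ratios moved more than these counts show. Of 72 ratios outside T cell-like cells, 59 kept their sign when thinned, and 42 stayed inside their counting interval. With the same mix of sub-clusters these numbers were 62 and 40, and with Scrublet 62 and 51. Under every other alternative at least 64 kept their sign and at least 59 stayed inside. The causes were not tested.

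In T cell-like cells the log2 ratio of Ncf1 in the library labelled HHcy turned to 0.16 with barcodes of 2 lineages kept, 0.00787 with Scrublet and 0.000572 at 20% mitochondrial UMIs. In WD, Cybb turned to 0.14 with barcodes kept and 0.26 with Scrublet, and Ncf1 to 0.34 at resolution 2. Under Scrublet the neutrophil-like class held 261, 699 and 496 cells in place of 186, 408 and 259. Scrublet marked only 0, 0 and 3 barcodes, so it used nearly the same cells as the setting with barcodes of 2 lineages kept. The class held 190, 423 and 272 cells in that setting. Nearly the same cells were thus clustered and named differently, so changes under Scrublet cannot be credited to doublet removal. Gclm in neutrophil-like cells of the library labelled HHcy stayed between 1.15 and 1.96. Of 99 subset levels, 8 moved by over 1.5 times at sub-clustering resolution 1. The order of classes without the library labelled HHcy was added after the data were seen. No paired analysis was possible because each group had 1 library, and so no replicate could be left out. Where few UMIs were counted (Gclm in neutrophils, Ncf1 in T cells), depth limits the value.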

Other observations

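Small classes, under 50 cells in at least 1 library, held some of these genes at high levels. Cyba was at 1115, 1204 and 1094 CPM in NK-like cells (22, 16 and 18 cells), where Cybb was at 96.7, 6.44 and 59.3. Prdx1 was at 501, 407 and 412 CPM in plasma-like cells (15, 77 and 16 cells) and at 467, 508 and 627 in fibroblast-like cells (30, 86 and 171 cells). Gpx1 was at 668, 646 and 580 CPM in mast-like cells (34, 24 and 11 cells).

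The 190 macrophage/monocyte-like cells with 10 or more Apoe UMIs in the library labelled HHcy had lower levels of several members than the other 1044 cells of that class. Slc7a11 was at 93.3 CPM (80.3 to 108) against 251 (242 to 261), Ncf4 at 93.3 against 173, Prdx1 at 422 against 637 and Cyba at 1117 against 1443. Ncf1 was at 178 CPM (159 to 197) against 167 (159 to 175) and Gclm at 31.1 (23.8 to 40.0) against 30.8 (27.5 to 34.4), with overlapping counting intervals. In resident macrophage-like cells of that library Slc7a11, Ncf4, Prdx1 and Cyba were also lower than in the rest of the class (0.0487-fold, 0.377-fold, 0.686-fold and 0.449-fold). Ncf1 and Gclm were not (1.31-fold and 1.14-fold). The subset make-up and depth of the 190 cells are not given here, and their part was not tested.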
